A study of Mus musculus with 12 samples.

Results

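The genes described here are 9 of the 32285 genes counted in single cells from mouse SCC35 tumours: the regulatory T cell transcription factors Foxp3 and Ikzf2, the interleukin-2 receptor chain Il2ra, the tumour necrosis factor receptor family members Tnfrsf4, Tnfrsf9, Tnfrsf18 and Cd27, and the immunoglobulin family receptors Cd28 and Icos. They were matched by symbol, and all 9 had a row in all 6 libraries. The tumours came from SCC35 lines 15 and 18, labelled as Mif KO controls (18 tumours), and from SCC35 lines 19 and 24, labelled Mif KO (17 tumours), at days 6, 10 and 16. There were also 3 WT tumours and 7 day-0 samples of the lines. The labels give the genotype of the tumour line. The sources used here name neither the strain nor the age of the mice, nor whether a line is 1 clone. Tumours were dissociated, tagged with a hashtag antibody each, sorted as live cells and run on the 10x Chromium 5′ v2 kit. 4 libraries held 1 line each and 2 held mixed lines.

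Line is nested in genotype: each group had 2 lines, and over 4 lines the smallest two-sided exact permutation p is 0.3333. The p-values below therefore measure the spread between tumours, or between sums per line and day where these are compared, not between lines. A tumour is 1 hashtag, and the labels do not say whether it was 1 animal. After removal of doublets, 100557 cells had 1 hashtag. Libraries held 151385933 to 239699029 gene UMIs (unique molecular identifiers, 1 per captured RNA molecule). Mif, the targeted gene, was at 2079.9 to 2199 CPM (UMIs of a gene scaled to an equal total, the usual CPM unit) in the non-immune cells of control lines, at 179 CPM in line 19 and at 529 CPM in line 24. Tumours of the control and KO lines did not overlap in this check. Of 5480 barcodes seen in more than 1 library, 4 were among the lymphocytes.

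T cells respond fully when the T cell receptor recognises antigen and costimulatory receptors also meet their ligands on antigen-presenting cells. Cd28 binds Cd80 and Cd86, Icos binds Icosl, and the tumour necrosis factor receptors Tnfrsf4 (OX40), Tnfrsf9 (4-1BB), Tnfrsf18 (GITR) and Cd27 bind Tnfsf4, Tnfsf9, Tnfsf18 and Cd70 and signal through TRAF adaptors to NF-kB. Many of these receptors are induced on activated T cells, and regulatory T cells carry several of them at rest. Regulatory T cells are CD4 cells defined by Foxp3. They restrain other T cells and are often found in tumours. They also carry high Il2ra, the high-affinity chain for interleukin-2, and most carry Ikzf2 (Helios), an Ikaros family protein that some CD8 T and NK cells carry too.

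The promoters of 4 of the inducible receptors are shown because NF-kB and AP-1 act downstream of the receptors themselves. The sequences are from RefSeq on GRCm38.p6, the patch release of the labelled mm10 build, each from 250 bases before to 50 after a start that RefSeq lists, plus strand. These starts are not the GENCODE gene starts given with the genes below, and the Tnfrsf4 window ends before its GENCODE gene begins. They lie at chr2:11642542-11642841 (Il2ra), chr4:156013445-156013744 (Tnfrsf4), chr4:150927749-150928048 (Tnfrsf9, 1 of its 2 listed promoters, inside the GENCODE gene) and chr4:156026072-156026371 (Tnfrsf18). Capitals mark matches, on either strand, to GGAAA (the core bound by NFAT factors), TGANTCA (an AP-1 motif) and the NF-kB motif; overlapping matches run together.
Il2ra: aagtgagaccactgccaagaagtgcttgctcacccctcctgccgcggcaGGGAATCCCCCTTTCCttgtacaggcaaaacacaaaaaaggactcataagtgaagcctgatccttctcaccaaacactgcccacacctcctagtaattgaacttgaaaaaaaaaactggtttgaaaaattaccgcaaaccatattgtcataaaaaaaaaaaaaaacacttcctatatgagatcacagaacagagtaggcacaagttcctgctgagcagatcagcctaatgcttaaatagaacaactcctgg
Tnfrsf4: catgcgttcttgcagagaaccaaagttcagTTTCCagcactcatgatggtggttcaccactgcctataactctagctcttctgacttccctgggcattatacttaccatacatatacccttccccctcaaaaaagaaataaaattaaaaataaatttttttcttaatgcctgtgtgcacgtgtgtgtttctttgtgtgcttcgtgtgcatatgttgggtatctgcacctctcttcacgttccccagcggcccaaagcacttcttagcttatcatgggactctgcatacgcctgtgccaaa
Tnfrsf9: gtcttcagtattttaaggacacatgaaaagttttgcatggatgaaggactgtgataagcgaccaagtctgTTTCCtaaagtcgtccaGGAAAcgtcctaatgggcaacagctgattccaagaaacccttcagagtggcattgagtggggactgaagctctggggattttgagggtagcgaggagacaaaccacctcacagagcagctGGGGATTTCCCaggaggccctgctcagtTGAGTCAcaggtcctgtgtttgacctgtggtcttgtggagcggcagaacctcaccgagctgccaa
Tnfrsf18: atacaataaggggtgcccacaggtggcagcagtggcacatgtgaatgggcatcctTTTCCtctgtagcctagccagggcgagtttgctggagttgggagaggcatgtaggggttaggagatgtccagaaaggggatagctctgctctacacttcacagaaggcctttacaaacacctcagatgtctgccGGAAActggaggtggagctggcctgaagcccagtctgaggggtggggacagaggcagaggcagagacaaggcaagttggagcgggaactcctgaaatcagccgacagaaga
Il2ra held overlapping NF-kB matches 201 and 200 bases before its RefSeq start, running into a GGAAA match at 190. Tnfrsf9 held overlapping NF-kB matches at 43 and 42 bases, with a GGAAA match inside them at 38 and others at 180 and 163, and TGAGTCA at 15 bases, which reads as TGANTCA on both strands. The other Tnfrsf9 promoter, at chr4:150919905-150920204 and not shown, held neither of these motifs, and GGAAA at 220 and 137 bases. Tnfrsf4 held GGAAA at 220 bases, and Tnfrsf18 at 195 and 61. Of 32851 promoters of this length, 4.51% held the NF-kB motif, 7.81% held TGANTCA and 61.3% held GGAAA. These matches describe the letters only. Entries for 6 of the 9 genes were found, with 8 promoters; Ikzf2, Icos and Cd28 are named only.

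Cells were sorted into classes by raw UMIs. A T cell needed at least 2 UMIs of Cd3d, Cd3e and Cd3g together, a Ptprc UMI, and fewer macrophage UMIs than Cd3 UMIs. CD8 T cells had Cd8a or Cd8b1 and no Cd4, CD4 T cells had Cd4 and no Cd8, both without Foxp3; regulatory T cells had a Foxp3 UMI and no Cd8, with or without Cd4. NK cells had no Cd3 and at least 2 UMIs of NK receptor genes. These gates set Foxp3 to 0 in the other classes, so Foxp3 between classes is not a finding. In the 4 lines, tumours gave 865 CD8 T, 429 CD4 T, 135 regulatory T and 709 NK cells, with median UMIs per cell of 2137, 1802, 1696 and 3668. A further 234 control and 1129 KO T cells met none of these classes and entered no comparison. The regulatory T cell markers Ctla4, Ikzf4, Gpr83 and Ccr8, which no gate used, summed to 1072 CPM in regulatory T, 479 CPM in CD4 T and 134 CPM in CD8 T cells (WT tumours included), with Gpr83 at 0 in regulatory T cells. The CD8 T markers Gzmk, Nkg7 and Ccl5 summed to 4288 CPM in CD8 T, 1041 CPM in CD4 T and 855 CPM in regulatory T cells. These markers were thus not confined to the CD8 T class. Whether other cells entered the CD4 T and regulatory T classes was not tested. The NK gate was looser than its name. Of 789 cells in it, 388 had a Klra4 UMI and 181 had over 10000 UMIs, and control cells in it carried 425.8 CPM of the mast cell markers Mcpt4 and Cpa3 against 2.56 CPM in KO cells. A wider gate, chosen after seeing this, dropped Klra4 for NK cells and let in T cells with 1 Cd3 UMI, with or without a Ptprc UMI. It held 1436 CD8 T, 786 CD4 T, 249 regulatory T and 494 NK cells, and its NK cells had 2.09 CPM of the mast cell markers. Values below are of the first gate unless the wider gate is named.

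**Figure D1:**
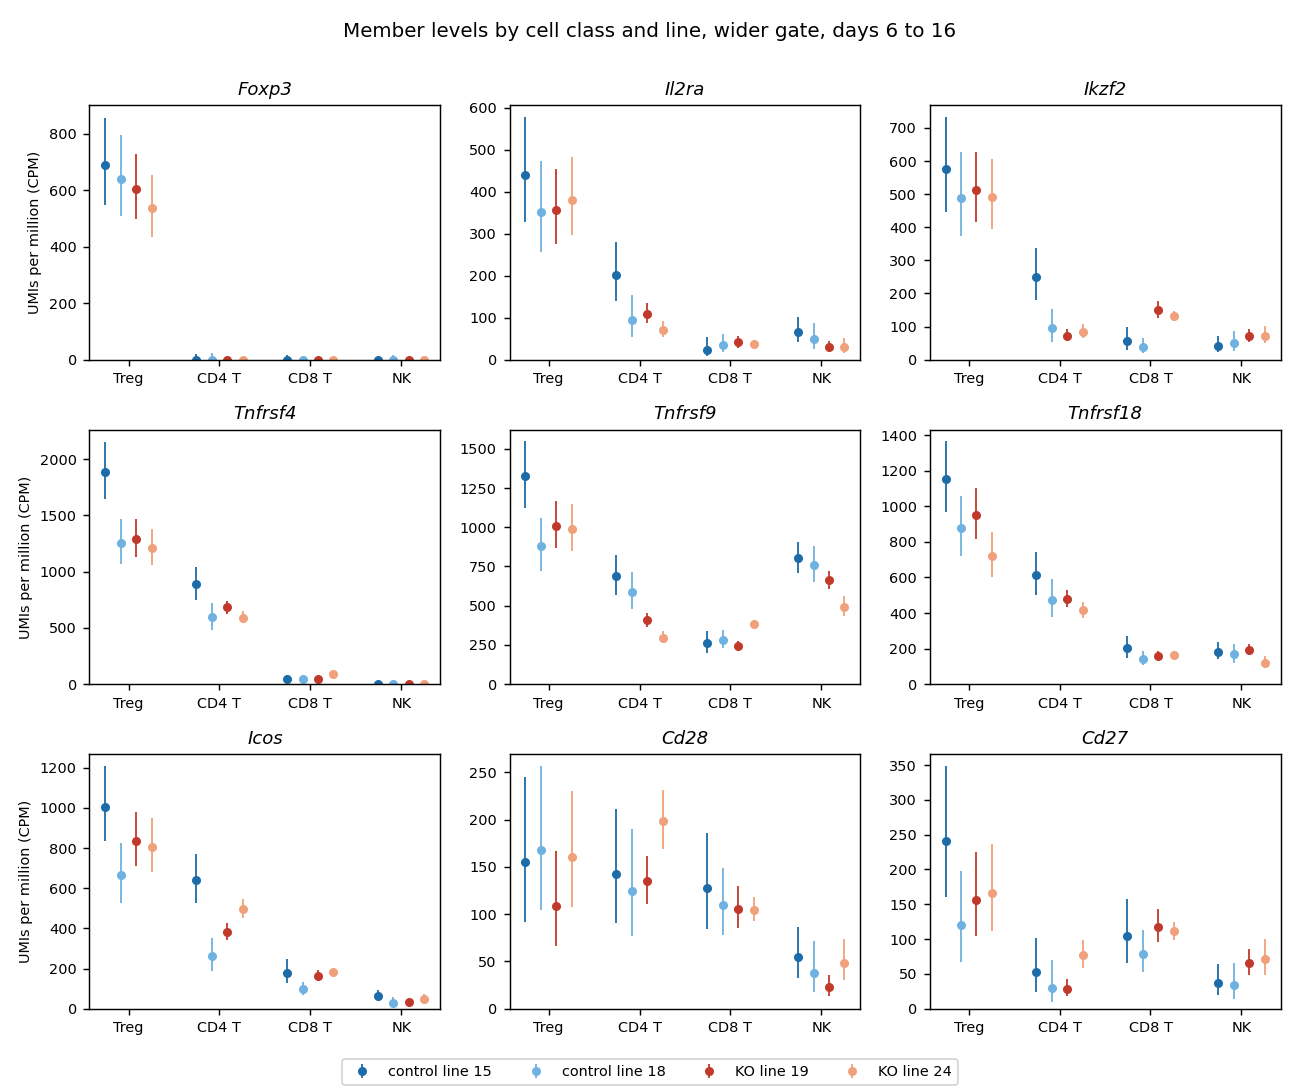
Level of each gene (CPM, vertical axis) in regulatory T, CD4 T, CD8 T and NK cells of the wider gate, days 6 to 16 together, for lines 15 and 18 (control) and 19 and 24 (Mif KO). Points are summed counts and bars are exact 95% Poisson intervals, which cover counting error only. Tnfrsf4 lies between 1210 and 1885 CPM in regulatory T cells and at no more than 2.21 CPM in NK cells, while Tnfrsf9 is at 241 CPM or more in all of these classes and lines.

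Free RNA in the droplets can add a few UMIs to cells that do not express a gene, so levels were also read in C1q macrophages (7922 cells, median 2799 UMIs) and in cells without immune gate genes (34707 cells, median 4764 UMIs). Of the 9 genes, 7 were at no more than 2.02 CPM in both. Ikzf2 was at 2.52 CPM in macrophages and 6.53 CPM in the non-immune cells. Tnfrsf9 was the exception. It was at 45.9 CPM (95% interval 43.4 to 48.5) in macrophages and at 122 CPM (120.3 to 123) in the non-immune cells, where it ranged over lines from 65.3 CPM (line 19) to 184 CPM (line 15). Each of the 8 genes other than Foxp3 was above both of its background levels in each T cell class, the lowest level being 40.3 CPM (Il2ra in CD8 T cells).

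Foxp3, on chromosome X at 7573644 to 7595245 (plus strand), encodes the transcription factor that specifies regulatory T cells. In regulatory T cells it was at 567 CPM (95% interval 494 to 649, 213 UMIs). By line it was 691 CPM in line 15, 639 CPM in line 18, 480.0 CPM in line 19 and 568 CPM in line 24, with overlapping intervals. All of these cells have a Foxp3 UMI by definition, but when each cell was thinned to 1000 UMIs, 55.1% still had one. Cells with Foxp3 RNA can thus lack a Foxp3 UMI at such a depth, and the number of them in the CD4 T class is unknown. Macrophages had Foxp3 at 0.548 CPM, with a UMI in 0.0919% of thinned cells.

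Ikzf2, on chromosome 1 at 69531214 to 69687245 (minus strand), encodes Helios. It was at 522 CPM (452 to 601) in regulatory T cells, 90.1 CPM (74.3 to 108) in CD4 T cells and 137 CPM (123 to 152) in CD8 T cells. In NK cells it was at 31.5 CPM with the first gate and 63.5 CPM with the wider gate. A UMI was seen in 50% of thinned regulatory T cells, 7.89% of CD4 T cells and 13.9% of CD8 T cells, against 0.263% of macrophages. Only 3 tumours held 10 cells of both classes, all of them Mif KO tumours of day 10. In them, Ikzf2 was at 257, 489.8 and 1189.9 CPM in regulatory T cells. It was at 36.4, 50.3 and 83.8 CPM in CD4 T cells, without overlap. It rose by 3.37 on the log2 scale (SE 0.43, edgeR quasi-likelihood test blocked by tumour, adjusted p = 0.0035, higher in 3 of 3 tumours). In this comparison 0.141% of 1421 genes were called higher and 0% lower, and Ikzf2 was the only called gene besides Foxp3.

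Few tumours held 10 regulatory T cells, so counts were also summed per line and day, which gave 11 pairs. Here 2.19% of 1277 genes were called higher in regulatory T cells and 1.96% lower, and 7 of the 8 genes other than Foxp3 were called higher. Ikzf2 ranged from 304 to 977 CPM (median 423) in regulatory T cells and from 0 to 629 CPM (median 102) in CD4 T cells, and was higher in 11 of 11 pairs (log2 2.21, SE 0.38, edgeR adjusted p = 0.00084). In the wider gate 7 tumours could be paired, with 1.34% of 1346 genes called higher and 1.26% lower, and 6 of the 8 genes were called higher. Ikzf2 was again higher in 7 of 7 tumours (log2 2.20, SE 0.27, edgeR adjusted p = 0.00034). These fits share cells and are not independent of each other.

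Il2ra, on chromosome 2 at 11642807 to 11693193 (plus strand), encodes the alpha chain (CD25) of the interleukin-2 receptor, which regulatory T cells use to take up interleukin-2. It was at 378 CPM (319 to 446) in regulatory T cells, 127 CPM (108 to 148) in CD4 T cells and 40.3 CPM (33.0 to 48.9) in CD8 T cells. NK cells were at 18.6 CPM, or 39.2 CPM (30.6 to 49.4) with the wider gate, which overlaps the CD8 T interval. In regulatory T cells it was 99.0 to 611 CPM over the 11 sums per line and day (median 399.8), against 35.9 to 899 CPM (median 159) in CD4 T cells. The ranges overlapped, but Il2ra was higher in regulatory T cells in 10 of 11 pairs (log2 1.38, SE 0.30, edgeR adjusted p = 0.0075). The wider gate gave log2 1.84 (SE 0.29, edgeR adjusted p = 0.0023) with 7 of 7 tumours higher. Among CD8 T cells it was lower than in CD4 T cells of the same tumour in 9 of 12 tumours (log2 -1.02, SE 0.32, edgeR adjusted p = 0.042).

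**Figure D2:**
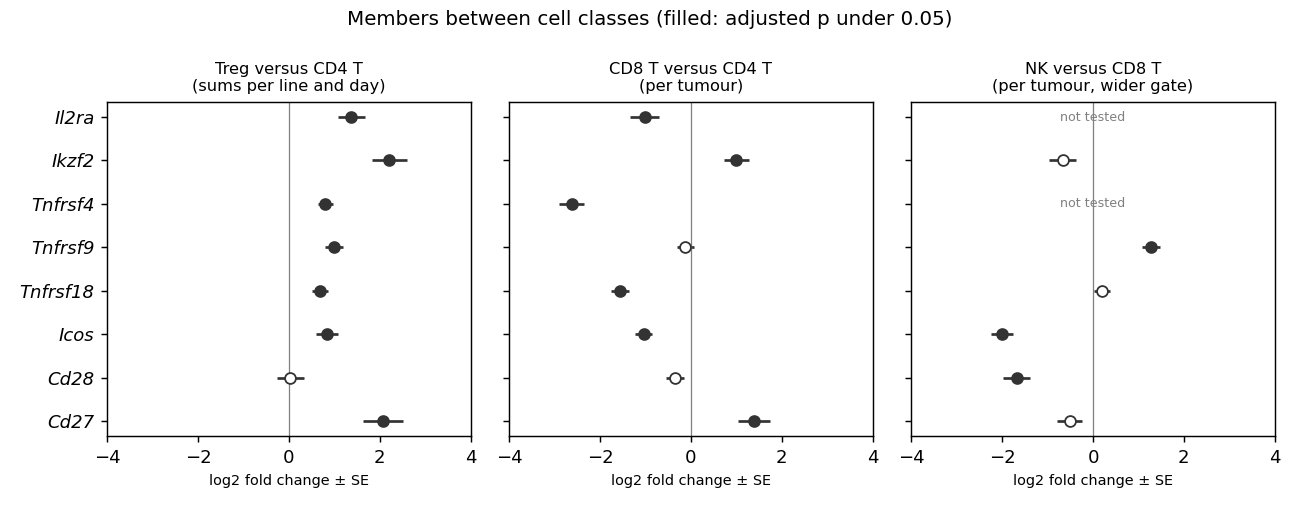
Differences between classes within the same tumours or line-day sums, as log2 fold change (horizontal axis) with its SE, from edgeR. Filled points have an adjusted p under 0.05. Regulatory T cells are compared with CD4 T cells, where Ikzf2 differs by 2.21 and Cd28 by 0.03; CD8 T cells with CD4 T cells, where Tnfrsf4 differs by -2.63; and NK cells with CD8 T cells in the wider gate, where Tnfrsf9 differs by 1.29.

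Tnfrsf4 and Tnfrsf18 lie side by side on chromosome 4, at 156013843 to 156016612 and 156026164 to 156028895, both on the plus strand and 9551 bases apart. Tnfrsf4 encodes OX40, a receptor induced on activated CD4 T cells that prolongs their response. Its levels were 1375 CPM (1259 to 1498) in regulatory T cells, 693 CPM (648 to 740) in CD4 T cells, 93.8 CPM (82.4 to 106) in CD8 T cells and 1.17 CPM (5 UMIs in all) in NK cells. With a UMI were 64.4% of thinned regulatory T cells, 46.8% of CD4 T cells and 8.22% of CD8 T cells, against 0.131% of macrophages, and the NK value lay beside the macrophage level of 1.61 CPM. Tnfrsf4 was higher in regulatory T than in CD4 T cells in 11 of 11 sums per line and day (log2 0.80, SE 0.17, edgeR adjusted p = 0.0047). The wider gate gave log2 1.06 (SE 0.23, edgeR adjusted p = 0.0192), higher in 6 of 7 tumours and, summed per line and day, in 9 of 11 pairs.

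The comparison of CD8 T with CD4 T cells used 12 tumours with both classes. The only control tumour among them was of line 18 at day 10, and the others were Mif KO. Of 2598 genes, 4.89% were called higher in CD8 T cells and 4.66% lower. Of the 8 genes tested, 4 were called lower and 2 higher. Tnfrsf4 was 6.73 to 199 CPM (median 72.9) in CD8 T cells and 266 to 1297 CPM (median 525) in CD4 T cells, so the ranges did not overlap. The difference was -2.63 on the log2 scale (SE 0.28, edgeR adjusted p = 5.1e-08, lower in 12 of 12 tumours). In the wider gate (19 tumours, 6.21% of 2848 genes called higher and 5.93% lower), 5 of 8 genes were called lower and 1 higher, and Tnfrsf4 differed by -3.42 (SE 0.24, edgeR adjusted p = 7.5e-13, lower in 19 of 19).

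Tnfrsf18 encodes GITR, which regulatory T cells carry at rest and other T cells gain on activation. The levels came in the same order: 836 CPM (746 to 934) in regulatory T cells, 491 CPM (453 to 531) in CD4 T cells, 171 CPM (155 to 187) in CD8 T cells and 76.2 CPM (68.2 to 84.9) in NK cells. In the wider gate the NK level was 169.5 CPM (151 to 189.6) and overlapped the CD8 T level of 162 CPM (149.6 to 175). Regulatory T cells were above CD4 T cells in 10 of 11 sums per line and day (log2 0.69, SE 0.18, edgeR adjusted p = 0.028). CD8 T cells ranged from 40.4 to 263 CPM (median 165) and CD4 T cells from 273 to 677 CPM (median 466), again without overlap. The difference was -1.56 (SE 0.19, edgeR adjusted p = 7.5e-07, lower in 12 of 12 tumours).

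Tnfrsf9, on chromosome 4 at 150914562 to 150946102 (plus strand), encodes 4-1BB, a receptor of recently activated CD8 T, regulatory T and NK cells. It was at 1020.3 CPM (921 to 1128) in regulatory T cells, 452 CPM (416 to 490) in CD4 T cells and 367 CPM (344 to 391) in CD8 T cells. A UMI was seen in 65.3% of thinned regulatory T cells, 30.0% of CD4 T cells and 28.1% of CD8 T cells, against 3.20% of macrophages and 10.3% of the non-immune cells. Regulatory T cells ranged from 455 to 2277 CPM over sums per line and day (median 1043) and CD4 T cells from 288 to 1798 CPM (median 518), higher in 11 of 11 pairs (log2 0.98, SE 0.20, edgeR adjusted p = 0.0035). Between CD8 T and CD4 T cells of the first gate the log2 difference was -0.13 (SE 0.19, edgeR adjusted p = 0.82), lower in 7 of 12 tumours, and was not called. With the wider gate it was -0.58 and called (SE 0.18, edgeR adjusted p = 0.028, lower in 16 of 19 tumours), but not without line 19 (-0.26, edgeR adjusted p = 0.63).

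NK cells of the wider gate had more Tnfrsf9 than CD8 T cells. There, 6.59% of 2064 genes were called higher in NK than in CD8 T cells of the same 14 tumours and 4.12% lower; 1 of 6 genes was called higher and 2 lower. Tnfrsf9 ranged from 333 to 839 CPM (median 565) in NK cells and from 83.5 to 502 CPM (median 194) in CD8 T cells. It was higher in 13 of 14 tumours (log2 1.29, SE 0.20, edgeR adjusted p = 3.2e-05), and stayed between 1.22 and 1.46 without each line in turn. With the first NK gate, which let in cells with mast cell and line cell genes, 12% of 3161 genes were called higher and 13.4% lower, and Tnfrsf9 differed by 0.33 (SE 0.22, edgeR adjusted p = 0.29, higher in 9 of 15 tumours). In that gate 6 of the 7 genes tested were called lower in NK cells, Tnfrsf9 being the other. Tnfrsf18 moved from -0.80 (SE 0.21, edgeR adjusted p = 0.0067, lower in 11 of 15 tumours) to 0.19 (SE 0.18, edgeR adjusted p = 0.73, higher in 9 of 14) with the wider gate. Tnfrsf4 had 1 UMI in the wider-gate NK cells of the 4 lines and none in the 14 paired tumours, against 0 to 141 CPM (median 20.6) in CD8 T cells, and did not pass the filter on low counts there.

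Cd27, on chromosome 6 at 125232622 to 125237010 (minus strand), encodes a receptor that naive and memory T cells carry constantly. It was at 170.5 CPM (131 to 218) in regulatory T cells, 109 CPM (97.0 to 123) in CD8 T cells, 42.3 CPM (31.8 to 55.2) in CD4 T cells and 26.8 CPM (22.1 to 32.2) in NK cells, or 57.4 CPM (46.9 to 69.6) in NK cells of the wider gate. CD4 T cells ranked below CD8 T cells here. Cd27 ranged from 34.1 to 207 CPM (median 106) in CD8 T cells and from 0 to 152 CPM (median 21.9) in CD4 T cells. It was higher in CD8 T cells in 11 of 12 tumours (log2 1.39, SE 0.35, edgeR adjusted p = 0.0074) and, with the wider gate, in 17 of 19 (log2 1.28, SE 0.25, edgeR adjusted p = 0.00025). Without line 19 the difference was 0.78 with the first gate (edgeR adjusted p = 0.36) and 0.69 with the wider gate (edgeR adjusted p = 0.15), and was not called in either. Regulatory T cells were above CD4 T cells in 9 of 11 sums per line and day (log2 2.07, SE 0.43, edgeR adjusted p = 0.0049); in line 18, 3 UMIs gave only 54.8 CPM (11.3 to 160.1). NK cells of the first gate were below CD8 T cells in 15 of 15 tumours (log2 -1.47, SE 0.27, edgeR adjusted p = 0.00019), and those of the wider gate in 9 of 14 without passing the test (log2 -0.51, SE 0.27, edgeR adjusted p = 0.28).

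Cd28 and Icos are neighbours on chromosome 1, at 60716800 to 60773359 and 60977927 to 61000320, both on the plus strand with 204567 bases between them. Cd28 encodes the main costimulatory receptor of naive T cells. Its levels were 144 CPM (108 to 188) in regulatory T cells, 150.3 CPM (129.8 to 173) in CD4 T cells and 114 CPM (101 to 127) in CD8 T cells, with 17.0 CPM in NK cells or 37.0 CPM (28.7 to 47.0) with the wider gate. Regulatory T and CD4 T cells differed by 0.03 on the log2 scale (SE 0.30, edgeR adjusted p = 1, higher in 6 of 11 sums per line and day). With the wider gate Cd28 was lower in regulatory T cells in 6 of 7 tumours (81.9 to 231 CPM, median 100.7, against 106 to 289 CPM, median 180.3) without passing the test (log2 -0.52, SE 0.28, edgeR adjusted p = 0.53). CD8 T and CD4 T cells differed by -0.35 (SE 0.20, edgeR adjusted p = 0.35, lower in 9 of 12 tumours). Cd28 was lower in NK than in CD8 T cells in 14 of 14 tumours of the wider gate (0 to 139 CPM, median 28.5, against 41.8 to 153 CPM, median 114; log2 -1.68, SE 0.30, edgeR adjusted p = 0.00024), and not called without line 19 (-1.19, edgeR adjusted p = 0.066).

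Icos, which supports helper and regulatory T cells after activation, was at 842 CPM (752 to 939.9) in regulatory T cells, 419.7 CPM (385 to 457) in CD4 T cells, 178 CPM (162 to 195) in CD8 T cells and 19.6 CPM (15.6 to 24.2) in NK cells, or 42.0 CPM (33.1 to 52.5) with the wider gate. CD8 T cells ranged from 34.1 to 322 CPM (median 192) and CD4 T cells from 112 to 619 CPM (median 389.7). Icos was lower in CD8 T cells in 11 of 12 tumours (log2 -1.04, SE 0.19, edgeR adjusted p = 0.00027). NK cells of the wider gate were below CD8 T cells in 13 of 14 tumours (log2 -2.01, SE 0.25, edgeR adjusted p = 8.7e-07). Regulatory T cells were above CD4 T cells in 9 of 11 sums per line and day (log2 0.84, SE 0.24, edgeR adjusted p = 0.048), and in 7 of 7 tumours of the wider gate without passing the test (log2 0.84, SE 0.24, edgeR adjusted p = 0.093).

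These calls were also read without each line in turn. For regulatory T against CD4 T cells in sums per line and day, Ikzf2 was called without each line (1.82 to 2.81). Without line 19, only Ikzf2 of the 8 genes was called (edgeR adjusted p = 0.037), and Tnfrsf4 and Tnfrsf9 missed the threshold at 0.054 each. Tnfrsf18 was not called without line 15, 19 or 24 (0.61 to 0.69, edgeR adjusted p 0.12 to 0.19), and Icos not without line 15, 18 or 19 (0.63 to 0.94, edgeR adjusted p 0.093 to 0.35). Il2ra without line 24 was at 1.22 (edgeR adjusted p = 0.0501), and Cd27 without line 15 at 1.80 (edgeR adjusted p = 0.0996). In the wider gate, Cd27 was not called without line 19 or 15 (edgeR adjusted p = 0.080 and 0.067), nor Tnfrsf18 without line 15 (0.094). No gene of the 8 was called without line 24, where 4 tumours were left and Ikzf2 had an edgeR adjusted p of 0.054. For CD8 T against CD4 T cells, Tnfrsf4, Tnfrsf18 and Icos were called without each line with the wider gate and in sums per line and day. Ikzf2 was higher in CD8 T cells with the first gate (log2 0.997, SE 0.28, edgeR adjusted p = 0.017, higher in 7 of 12 tumours) but not with the wider gate (0.46, SE 0.25, edgeR adjusted p = 0.33, higher in 10 of 19). With the first gate that call was lost without line 19 (0.56, edgeR adjusted p = 0.42) and without line 24 (1.49, edgeR adjusted p = 0.072). The lower Il2ra of CD8 T cells was not called without line 19 (-0.69, edgeR adjusted p = 0.56) or line 24 (-1.18, edgeR adjusted p = 0.16) in the first gate, nor without line 19 in the wider gate (-0.96, edgeR adjusted p = 0.12). The lower Icos had an edgeR adjusted p of 0.058 without line 24 in the first gate.

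The study's own comparison is of Mif KO with control tumours. In CD8 T cells (5 control and 15 KO tumours with at least 10 cells), 1.66% of 1327 genes were called, and none of the 6 genes that passed the filter on low counts; Il2ra and Cd28 did not pass it. Ikzf2 had the largest difference of the 6. It was at 94.6 CPM in the line 15 tumour and at 0, 50.5, 55.1 and 74.3 CPM in the 4 tumours of line 18. It ranged from 19.1 to 312 CPM (median 149) in KO tumours, so the groups overlapped. The difference was 1.53 (SE 0.52, edgeR adjusted p = 0.15). Cd27 was at 0 to 110.2 CPM (median 50.5) in control and 19.1 to 207 CPM (median 126) in KO tumours (log2 1.10, SE 0.52, edgeR adjusted p = 0.28). Tnfrsf4 (0.82), Icos (0.65), Tnfrsf18 (0.15) and Tnfrsf9 (-0.14) had edgeR adjusted p of 0.51 to 0.91. Median UMIs per CD8 T cell were 1948 in control and 2167 in KO tumours.

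**Figure D3:**
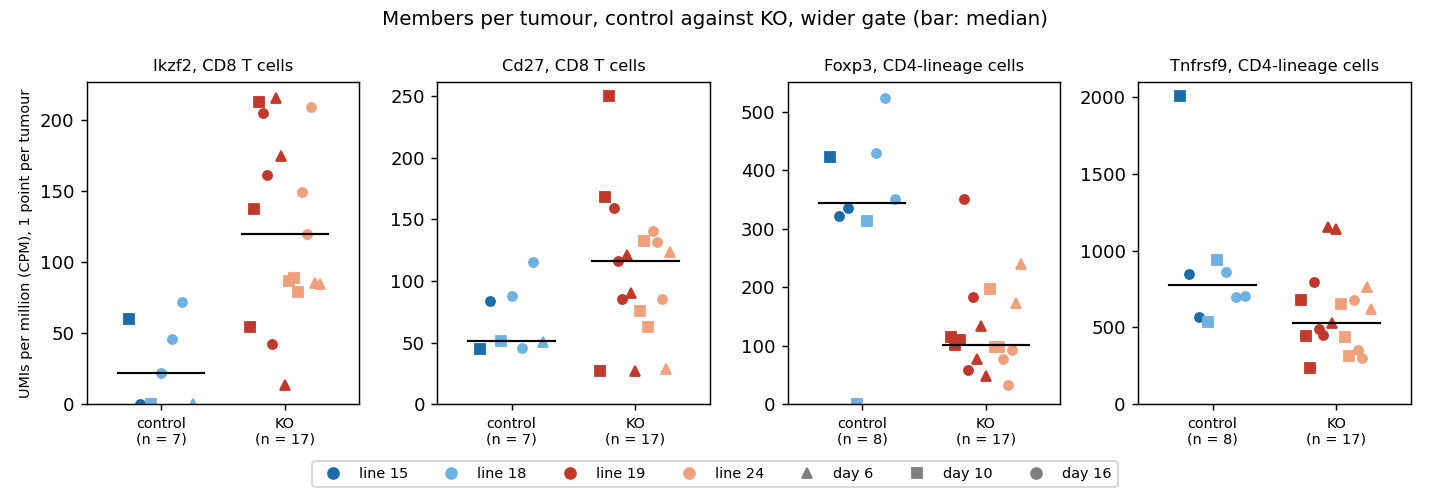
CPM per tumour (vertical axis) in control and Mif KO tumours with at least 10 cells of the wider gate, with a bar at the median: Ikzf2 and Cd27 in CD8 T cells (7 control, 17 KO) and Foxp3 and Tnfrsf9 in CD4-lineage T cells (8 control, 17 KO). Median Ikzf2 is 22.0 CPM in control and 120.1 CPM in KO tumours, and median Foxp3 is 343 CPM in control and 100.6 CPM in KO tumours, with overlap in every panel.

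Ikzf2 in CD8 T cells passed the threshold under other settings. In the wider gate 2.95% of 1763 genes were called, and 1 of 6 genes: Ikzf2 was 0 to 72.3 CPM (median 22.0) in 7 control tumours and 13.3 to 216 CPM (median 120.1) in 17 KO tumours (log2 1.99, SE 0.50, edgeR adjusted p = 0.026). With no filter on low counts 0.504% of 14476 genes were called, Ikzf2 among them and no other of the 8 genes tested (log2 1.88, SE 0.44, edgeR adjusted p = 0.0065), where the median of all genes was itself 0.47. Summed over days with the first gate, Ikzf2 was 77.2 CPM (39.9 to 135) in line 15, 49.2 CPM (24.6 to 88.0) in line 18, 167 CPM (137 to 202) in line 19 and 143 CPM (125 to 163) in line 24, so both KO lines lay above both control lines, and the interval of line 15 met that of line 24. Without line 18, which left 1 control tumour assumed to vary like the others, the difference was 0.36 (edgeR adjusted p = 0.95). With the wider gate it was 1.47 (edgeR adjusted p = 0.59) without line 18 and 2.08 (edgeR adjusted p = 0.20) without line 24, and was called without lines 15 or 19. In the mixed libraries alone it was 1.55 (edgeR adjusted p = 0.98). Genotype and line cannot be told apart in any library, and outside the mixed libraries they cannot be told apart from library either.

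In CD4 T cells only 2 control tumours held 10 cells, against 12 KO tumours. The call rate was 0% of 2052 genes (edgeR; 165 at an unadjusted p under 0.05, and 1 by DESeq2), and none of the 7 genes tested was called. Tnfrsf9 was at 467 and 621 CPM in the control tumours and 181 to 625 CPM (median 375) in KO tumours (log2 -0.57, SE 0.36, edgeR adjusted p = 0.75). Cd28 was at 38.8 and 93.3 CPM in control and 90.5 to 312 CPM (median 154) in KO tumours (log2 1.43, SE 0.66, edgeR adjusted p = 0.59). The control CD4 T cells also carried 1491 CPM of the fibroblast markers Col1a1 and Dcn against 110.7 CPM in KO cells; the part of this in the differences was not tested.

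No control tumour held 10 regulatory T cells of the first gate. With the wider gate the control tumours that did were all of day 16 and the KO tumours of days 6 and 10, so that genotype and day cannot be told apart per tumour. Regulatory T cells were therefore compared in sums per line and day (5 control, 6 KO), where 0% of 826 genes were called (edgeR; 53 at an unadjusted p under 0.05, and 1 by DESeq2). None of the 6 genes tested other than Foxp3 was called. Tnfrsf4 was at 1604 CPM (1392 to 1840.4) in control and 1257 CPM (1121 to 1404) in KO cells summed over days, a difference of -0.53 (SE 0.26, edgeR adjusted p = 0.77). Tnfrsf9 was at 1188 CPM (1006 to 1393) in control and 935 CPM (818 to 1063) in KO cells (log2 -0.53, SE 0.28, edgeR adjusted p = 0.77). Each of these cells was chosen by a Foxp3 UMI, so Foxp3 between genotypes within them is not a test: its log2 difference was -0.31, and -0.33 in sums per line (2 against 2). Line 15 had the highest Tnfrsf4, Tnfrsf9, Tnfrsf18, Icos and Cd27 of the 4 lines in these cells, at 1934, 1368, 1049.9, 1105 and 290.1 CPM.

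In NK cells of the first gate (11 control, 14 KO tumours) 0.802% of 2120 genes were called and 2 of the 9 genes were tested, neither called: Tnfrsf9 differed by -0.10 (SE 0.38, edgeR adjusted p = 0.96) and Tnfrsf18 by 0.52 (SE 0.38, edgeR adjusted p = 0.59). With no filter on low counts 1.12% of 15096 genes were called, and 2 of 8 genes. Cd27 was 0 to 42.3 CPM (median 10.2) in control and 14.2 to 112 CPM (median 45.6) in KO tumours (log2 1.92, SE 0.38, edgeR adjusted p = 0.00016). Ikzf2 was 0 to 30.8 CPM (median 10.98) in control and 0 to 103 CPM (median 44.7) in KO tumours (log2 1.51, SE 0.35, edgeR adjusted p = 0.0031). The control cells of this gate carried the mast cell markers given above. Without a filter in the wider gate, 0.842% of 13540 genes were called and none of the 7 genes tested was: Cd27 differed by 1.09 (SE 0.44, edgeR adjusted p = 0.43) and Ikzf2 by 1.02 (SE 0.43, edgeR adjusted p = 0.44). With the filter in that gate (6 control, 12 KO), 4.99% of 1283 genes were called and neither gene tested was. Tnfrsf9 was 686 to 856 CPM (median 755) in control and 333 to 787 CPM (median 509) in KO tumours. The difference was -0.53 (SE 0.16, edgeR adjusted p = 0.067). Of the fits without a line, only that without line 19 is given here: -0.57 (edgeR adjusted p = 0.046). Median UMIs per NK cell of this gate were 3294 in control and 2221 in KO tumours. The non-immune cells carried Tnfrsf9 too, at levels that differed between lines. The part of either in this difference was not tested.

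CD4 T and regulatory T cells were also summed together as CD4-lineage T cells, an analysis added after the data were seen. Foxp3 still decides in part which cells enter this sum, because a cell without a Cd4 UMI enters it only by a Foxp3 UMI: 17 of the 46 control and 21 of the 89 KO cells with Foxp3 had a Cd4 UMI. The Foxp3 values of this sum are therefore partly set by the gate and are given as values with no test. In such a sum, fewer regulatory T cells and less Foxp3 RNA per cell cannot be told apart. With the first gate (4 control, 15 KO tumours) 0% of 1364 genes were called (edgeR; 143 at an unadjusted p under 0.05, and 1 by DESeq2). None of the 7 genes tested other than Foxp3 was called; Tnfrsf9 differed by -1.08 (SE 0.33, edgeR adjusted p = 0.26), and the Foxp3 value was -1.19. With the wider gate (8 control, 17 KO) 3.12% of 1280 genes were called, and 1 of the 7 genes other than Foxp3, Tnfrsf9. Foxp3 was at 0, 313, 322, 335, 351, 423, 429 and 524 CPM in the control tumours and 33.0 to 349.8 CPM (median 100.6) in KO tumours. The groups overlapped, 1 control tumour of line 18 at day 10 being at 0, and the fitted log2 difference was -1.51. Tnfrsf9 was 536 to 2009 CPM (median 775) in control and 239 to 1157 CPM (median 527) in KO tumours and fell by 0.91 (SE 0.25, edgeR adjusted p = 0.043). The non-immune cells carried Tnfrsf9 too, from 65.3 CPM in line 19 to 184 CPM in line 15, and control CD4 T cells of the first gate carried the fibroblast markers given above; the part of either in this fall was not tested. Il2ra missed the threshold (log2 -1.06, SE 0.31, edgeR adjusted p = 0.055).

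With a Cd4 UMI asked of every cell in the wider gate (6 control, 16 KO tumours), 1.67% of 1438 genes were called, and 1 of the 7 genes tested. Foxp3 did not pass the filter on low counts there. It was at 0, 66.1, 88.1, 146, 401 and 525 CPM in the control tumours, from 0 to 11 UMIs each, and at 0 to 213 CPM (median 25.9) in KO tumours, of which 5 were at 0, so the groups overlapped. Tnfrsf9 was the called gene, at 463 to 1850 CPM (median 811) in control and 207 to 1172 CPM (median 412) in KO tumours (log2 -1.22, SE 0.31, edgeR adjusted p = 0.036), with overlap. Il2ra (-1.40, edgeR adjusted p = 0.077) and Tnfrsf4 (-0.74, edgeR adjusted p = 0.093) were not called. With the first gate and a Cd4 UMI asked (2 control, 12 KO tumours) Foxp3 differed by -2.18 (SE 1.14, edgeR adjusted p = 0.68) and Tnfrsf9 by -0.90 (SE 0.35, edgeR adjusted p = 0.55).

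Without the Cd4 UMI asked, the call of Tnfrsf9 in the wider gate was lost with no filter on low counts (-0.63, edgeR adjusted p = 0.11) and without any 1 of the lines (-1.19 to -0.62, edgeR adjusted p 0.061 to 0.29). The Foxp3 value in the wider gate was -1.22 with no filter, where the median of all genes was 0.27, and -1.74 to -1.14 without each line. It was -2.16 with the stricter gate, and -2.42 in tumours with at least 20 cells, of which 1 was a control. With the first gate and without line 15, the Foxp3 value was -0.27 and that of Tnfrsf9 -0.22; without line 18 Tnfrsf9 differed by -1.59 and was called (edgeR adjusted p = 0.037). Without line 15, Il2ra changed sign to 0.64. In sums per line and day the Foxp3 value was -1.29, or -1.18 with the wider gate. The mixed libraries alone held 1 control tumour beside 5 KO tumours, which is given with no test: Foxp3 differed by -0.84 and Tnfrsf9 by -0.12.

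The share of CD4-lineage T cells with a Foxp3 UMI is another measure, which counts cells and depends on the UMIs per cell. Over all UMIs it was 42.6% (46 of 108 cells, exact Clopper-Pearson 95% interval 33.1 to 52.5%) in control tumours and 19.5% (89 of 456, 15.98 to 23.5%) in KO tumours. Both control lines were above both KO lines, at 44.6% and 40.4% against 20.2% and 19.0%. Thinned to 1000 UMIs per cell, which left 99 control and 412 KO cells, the shares were 19.2% (12.0 to 28.3%) and 11.2% (8.29 to 14.6%), and the intervals overlapped. Median UMIs were 1981 per control and 1713 per KO CD4 T cell, and 2076 and 1603 per regulatory T cell. The gate asks CD4 T cells but not regulatory T cells for a Cd4 UMI. With a Cd4 UMI asked of all, the shares were 21.5% in control and 5.41% in KO tumours, with line 18 at 8.82% (1.86 to 23.7%) beside KO lines at 6.21% and 4.74%. Requiring a Cd4 UMI in the wider gate, they were 19.9% (13.8 to 27.1%) and 4.18% (2.82 to 5.95%), with lines 15 and 18 at 22.1% and 17.6% and lines 19 and 24 at 5.08% and 3.51%. After thinning these became 8.26% (4.03 to 14.7%) and 2.02% (1.05 to 3.502%). All of these intervals pool cells over tumours and cover counting error only. They leave out the spread between tumours, so their overlap or separation is no test of genotype.

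**Figure D4:**
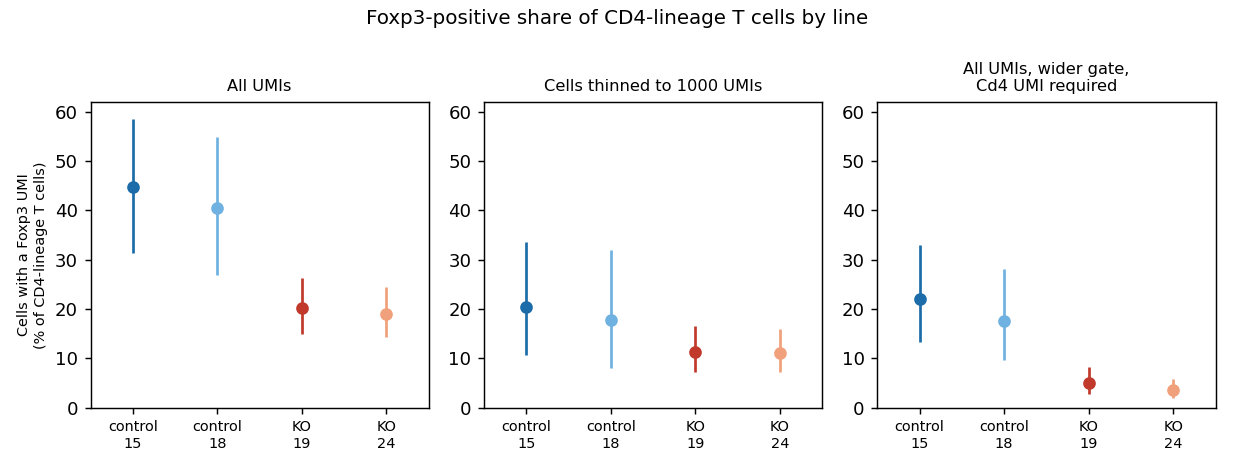
Share of CD4-lineage T cells with a Foxp3 UMI (percent, vertical axis) by line, with exact 95% intervals: over all UMIs, with cells thinned to 1000 UMIs, and in the wider gate with a Cd4 UMI required. Intervals pool the cells of a line and cover counting error only, not the spread between tumours. Lines 15 and 18 are control and lines 19 and 24 Mif KO. In the first panel the control lines are at 44.6% and 40.4% and the KO lines at 20.2% and 19.0%; after thinning the intervals of all 4 lines overlap.

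Over tumours the share was tested with and without a Cd4 UMI asked of every cell. Without it the gate lets Foxp3 admit the cells it counts, so those tests cannot decide the question. Their two-sided permutation p was 0.346 at 10 cells and 0.131 at 5 cells with the first gate. With the wider gate it was 0.022 at 20 cells, 0.059 at 5 cells and 0.143 in the mixed libraries alone. With 20 thinned cells or more, 8 KO tumours had a mean share of 10.7% ± 3.22 (SD) and 1 control tumour had 25%. At 10 cells or more, 13 KO and 3 control tumours had means of 13.0% ± 13.2 and 22.2% ± 20.97 (SD; difference -9.24 percentage points), and at 5 cells or more 17 KO and 8 control tumours had 12.2% ± 12.5 and 21.3% ± 14.8 (difference -9.14). At 20 cells in the wider gate, 12 KO tumours had 10.5% ± 3.76 and 2 control tumours 36.1% ± 12.5 (difference -25.6). Both of these control tumours were of day 16, while the KO tumours were of days 6, 10 and 16. The share tests had no day term, so genotype and day are mixed there. With 2 against 12 tumours the smallest one-sided permutation p is 0.011. At 5 cells or more the wider gate gave -8.06 (17 KO, 12 control tumours), and in the mixed libraries alone -15.1 (6 and 4 tumours). With a Cd4 UMI required the difference was -4.90 (17 KO, 10 control tumours, two-sided permutation p = 0.0881) and did not pass 0.05.

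Within the mixed libraries control and KO cells shared a run, but control cells were few. In the first, the unthinned share was 66.7% in line 15 (8 of 12 cells, exact 95% interval 34.9 to 90.1%). It was 53.8% in line 18 (7 of 13, 25.1 to 80.8%) and 18.2% in line 19 (14 of 77, 10.3 to 28.6%). In the second it was 55.6% in line 18 (5 of 9, 21.2 to 86.3%) and 20.5% in line 24. Line 18 in the first was of day 16 only. Foxp3 partly decides which cells these shares count, and these unthinned shares were not tested. In the lines' own libraries the unthinned shares were 38.6%, 30.0%, 21.4% and 17.6% for lines 15, 18, 19 and 24. By day the control share was 30.0% at day 6 (6 of 20 cells), 30.3% at day 10 (10 of 33) and 54.5% at day 16 (30 of 55). The KO share was 25.4% (16 of 63), 19.7% (51 of 259) and 16.4% (22 of 134). The difference between the days' courses was not tested.

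Day 16 was compared with day 6 with genotype in the fit. In CD8 T cells (4 tumours at day 6, 8 at day 16) 0% of 1327 genes were called by edgeR (138 at an unadjusted p under 0.05, 0 by DESeq2), and none of the 6 genes tested was. Tnfrsf4 was 0 to 43.9 CPM (median 17.3) at day 6, 6.73 to 142 CPM (median 56.3) at day 10 and 0 to 199 CPM (median 149) at day 16. The difference between day 16 and day 6 was 2.53 (SE 0.67, edgeR adjusted p = 0.19). Tnfrsf9 was 157 to 299.7 CPM (median 167), 83.1 to 673 CPM (median 203) and 99.0 to 797 CPM (median 538) at the 3 days (log2 1.29, SE 0.43, edgeR adjusted p = 0.23). The days overlapped for both genes, and all 4 tumours of day 6 were KO. With no filter on low counts 0.345% of 14476 genes were called, and 2 of 8 genes: Tnfrsf4 (log2 2.60, edgeR adjusted p = 5.7e-05) and Tnfrsf9 (log2 1.29, edgeR adjusted p = 0.0060). Without line 18 both were called with the filter as well (2.62 and 1.49, edgeR adjusted p = 0.042 and 0.038). Without line 24 Tnfrsf9 differed by 0.77 (edgeR adjusted p = 0.91), and with the wider gate by 0.75 (edgeR adjusted p = 0.64).

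**Figure D5:**
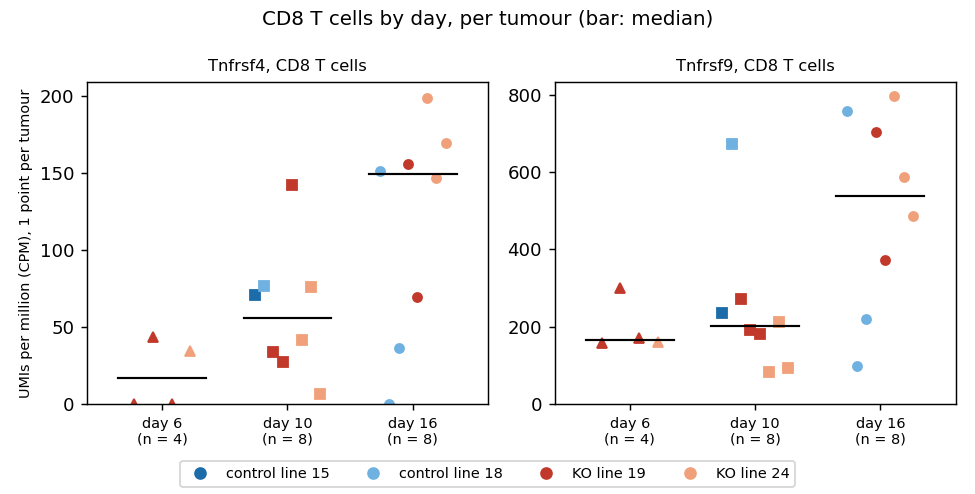
Tnfrsf4 and Tnfrsf9 in CD8 T cells (CPM, vertical axis) per tumour at days 6, 10 and 16 (4, 8 and 8 tumours of the first gate), control and KO marked apart, with a bar at the median. Median Tnfrsf4 is 17.3, 56.3 and 149 CPM and median Tnfrsf9 167, 203 and 538 CPM, and the days overlap for both.

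In the other classes no day difference of these genes passed. For NK cells 0% of 2120 genes were called (edgeR; 150 at an unadjusted p under 0.05), and Tnfrsf9 differed by -0.57 (SE 0.45, edgeR adjusted p = 0.84). For regulatory T cells in sums per line and day 0% of 826 genes were called (edgeR; 47 at an unadjusted p under 0.05); Ikzf2 differed by 0.89 (SE 0.45, edgeR adjusted p = 0.82), and Foxp3, which chose these cells, by 0.79 with no test. Per tumour, CD4 T cells could be fitted between days with the wider gate only, where 1.15% of 1310 genes were called and none of the 7 genes tested: Tnfrsf4 differed by -0.93 (SE 0.29, edgeR adjusted p = 0.14), Tnfrsf9 by -1.04 (SE 0.36, edgeR adjusted p = 0.18) and Il2ra by -1.53 (SE 0.55, edgeR adjusted p = 0.21). In first-gate sums per line and day (4 against 4) Tnfrsf4 differed by -0.39 (SE 0.39) and Tnfrsf9 by -0.53 (SE 0.32), each with an edgeR adjusted p of 0.99996, and Tnfrsf4 by 0.014 without line 19. For Tnfrsf4 and Tnfrsf9 the sign in CD4 T cells was opposite to that in CD8 T cells; the difference between the classes was not tested.

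Of the ligands of these receptors, none passed the filter in most fits, so they are given as levels. Cd86 was at 107 CPM, Tnfsf9 at 72.7 CPM, Cd80 at 23.2 CPM and Icosl at 5.55 CPM in macrophages, Cd70 at 51.7 CPM (40.0 to 65.8) in CD4 T cells, and Tnfsf18 at 0 in T and NK cells. Among signalling genes downstream of the receptors, 2 of 8 were lower in CD8 T than in CD4 T cells (Rel by -0.82, SE 0.20, and Nfkb1 by -0.62, SE 0.17, both NF-kB subunits; edgeR) with a list median of -0.19 against -0.00 for all genes, of which 4.66% were called lower. Of the other regulatory T cell genes, 3 of 8 were lower in CD8 T cells: the chemokine receptor Ccr8 by -3.24, the inhibitory receptor Ctla4 by -1.37 and the transcription factor Batf by -1.33 (median -0.74). Against CD4 T cells in sums per line and day, regulatory T cells had 2 of 7 of these genes higher, Ctla4 by 1.30 (SE 0.21, edgeR adjusted p = 0.00051) and the inhibitory receptor Tigit by 0.92 (SE 0.25, edgeR adjusted p = 0.036), with a median of 0.33 against 0.00 for all genes, of which 2.19% were called higher. In CD8 T cells of KO tumours, where 1.66% of all genes were called, Rel was higher by 1.78 (SE 0.37, edgeR adjusted p = 0.0096), 1 of 6 signalling genes tested, and the interleukin-2 receptor beta chain Il2rb by 1.43 (SE 0.33, edgeR adjusted p = 0.017), 1 of 3 regulatory T cell genes tested. No gene was called in tumours with at least 20 cells, so both of these calls were lost there.

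Genes with the most similar pattern were ranked by Pearson's r of log2(CPM + 1) over the 16 sums of 4 lines and 4 classes, among 5892 genes. The values describe shared class differences and carry no test, since the 16 sums share libraries and cells. Tnfrsf4 was closest to Ccr8 (r = 0.98) and Ctla4 (0.98), Tnfrsf18 to Ctla4 (0.98) and Ly6a (0.97), Icos to Ctla4 (0.99) and Ifi27l2a (0.98), and Ikzf2 to Tigit (0.96) and Zc3hav1 (0.93). Il2ra was closest to Rilpl2 and Ly6a (0.95 each), and Cd28 to the adaptor genes Fyb (0.98) and Grap2 (0.96). Tnfrsf9 was closest to Arl5a (0.94) and Ddit4 (0.92), Cd27 to Zbp1 (0.91) and Ptpn18 (0.88), and Foxp3 to Ighm (0.92) and Glrx (0.90), which rests on the gated zeros of Foxp3.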

How the data were processed

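The deposited matrices hold UMI counts per gene or hashtag and cell, made with Cell Ranger 6.0.0 on mm10 per the submitters' processing notes and the file headers. No other settings are named in these sources. Kept cells had 300 genes or more and no more than 15% of UMIs from mitochondrial genes (163866 of 176381 barcodes, medians of 3072 to 9121.5 UMIs per library). Hashtags were called with HTODemux (Seurat 5.3.0), which also removed doublets of unlike hashtags; 45 of 47 hashtags were used and mapped to line and day by the deposited hash sheet. Counts were summed per tumour and class (at least 10 cells) and tested with edgeR 4.0.16 (quasi-likelihood, TMM, filterByExpr, Benjamini-Hochberg over all genes tested, threshold 0.05), with day in the fit for genotype and tumour as a block between classes. DESeq2 1.42.0 was an alternative. Regulatory T cells could not be fitted per tumour between genotypes, since no control tumour held 10, so sums per line and day (at least 3 cells) took their place. CPM intervals are exact Poisson and shares exact binomial, both 95%, for counting error only. Gene positions are from GENCODE M21 (GRCm38). Tests were checked on simulated counts. The 9 genes and the gene lists were chosen with earlier results of these data known. Named are all 9 genes, list genes past the threshold, and for each gene the 2 of highest r among genes with a mean of at least 20 CPM. Alternatives are in the closing section; the wider gate, the CD4-lineage sums and the sums per line and day were added after seeing the data. The 3 WT tumours have no group in the labels and entered no test.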

Additional observations from a re-analysis of the deposited data

Results flagged for a closer look

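A check for a sample far from the others covered 18 sets of values, each of 1 gene or of the Foxp3 share, and none held one. The gene sets were of control tumours, for CD8 T and CD4-lineage T cells, and the share set was of KO tumours. Many of these sets share the same tumours. Chance alone would give such a sample in about 1 set in 20. No gene was checked in KO tumours, and nothing can be said of the sets not checked. Tnfrsf9 was present outside the immune cells: cells of the day-0 hashtags without immune gate genes, which enter no comparison, carried it at 33.7 CPM. In the tumours the cells without immune gate genes had 60.6 CPM at day 6, 144 CPM at day 10 and 142 CPM at day 16. Foxp3 appeared in T cells that met no class, at 6.78 CPM (95% interval 4.34 to 10.1, 24 UMIs), with a UMI in 1.25% of 1363 cells, against 0.548 CPM in macrophages. The gate moves every T cell with Foxp3 and no Cd8 to the regulatory T class. Foxp3 among cells of no class thus comes only from cells with Cd8, and its level is partly set by the gate.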

How the results depend on the processing

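Of 581 alternative values for 45 comparisons of named genes, 455 kept their direction and side of the threshold, 48 lost the threshold, 56 gained it and 22 changed sign. Of 382 values for 38 other member comparisons, none of them called, 312 kept their direction and 70 changed sign, among them Tnfrsf18 (0.15) in 9 of 18 and Tnfrsf9 (-0.14) in 6 of 18 for KO against control in CD8 T cells. These counts include Foxp3 in regulatory T and CD4-lineage T cells, where the gate sets or partly sets its value. Where a first-gate class comparison held no tumour of a line, leaving that line out repeats the main fit. This holds for lines 15 and 18 in regulatory T against CD4 T cells. It also holds for line 15 in CD8 T against CD4 T and NK against CD8 T cells. Such repeats show nothing about how stable a result is. Counts of called genes moved more. For KO against control in CD8 T cells (22 genes) the count was 35 with DESeq2, 73 with no filter, 6 with the stricter gate, 52 with the wider gate, 120 with the wider gate and no filter, 0 at 20 cells, 1 in sums per line, 2 in the mixed libraries alone, 1 in sums per line and day, and 0 to 33 without each line. For NK cells (17) it was 43, 169, 6, 64, 114, 1, 33, 2 and 1 in the same order, and 3 to 43 without each line. In the wider gate without lines 15, 18, 19 and 24 in turn, CD8 T cells gave 31, 1, 88 and 2 and NK cells 9, 16, 101 and 1. With DESeq2, no filter, the wider gate and both of the last, CD4 T cells (0) gave 1, 27, 4 and 40, and 0 to 2 without each line. CD4-lineage T cells (0) gave 1, 23, 40 and 215 in that order, 24 in the wider gate with a Cd4 UMI required, 3 in the mixed libraries, 0 to 10 without each line, and 58, 14, 46 and 5 in the wider gate without lines 15, 18, 19 and 24. Regulatory T cells (0) gave 1 with DESeq2, 4 with no filter and 0 to 1 without each line. Between days, with no filter, the wider gate and both, CD8 T cells (0) gave 50, 1 and 32 and NK cells (0) gave 32, 2 and 14, with 0 to 8 and 0 to 3 without each line, and NK cells gave 1 in sums per line and day. CD4 T cells of the wider gate (15) gave 57 and regulatory T cells (0) gave 3 with no filter. Regulatory T against CD4 T cells (2) gave 61 with no filter, 35 with the wider gate, 1 with no tumour block, 53 in sums per line and day, 2 to 41 without each line, and 25, 36, 31 and 1 in the wider gate without each. Those sums (53) gave 105 with the wider gate and 29, 51, 17 and 56 without lines 15, 18, 19 and 24. CD8 T against CD4 T cells (248) gave 114 at 20 cells and 68 to 251 without each line. NK against CD8 T cells (802) gave 107 with the stricter gate, 221 with the wider gate, 401 at 20 cells, 1511 in sums per line and day, 346 to 802 without each line, and 215, 181, 114 and 136 in the wider gate without each. Signs changed for Tnfrsf9 between genotypes in NK cells (-0.10), at 0.35 in sums per line, 0.13 per line and day and -0.45 to 0.43 without each line. Tnfrsf18 there (0.52) was -0.076 with the stricter gate, -0.33 with the wider gate, -0.25 with no filter as well, and -0.25, -0.36, -0.72 and 0.041 in the wider gate without each line. Il2ra in CD4-lineage T cells (-0.66) was 0.68 in the mixed libraries and -1.40 to 0.64 without each line. Cd28 in regulatory against CD4 T cells (-0.37) was 0.030 in sums per line and day, -0.16 there with the wider gate, and -0.15, -0.057, 0.31 and 0.089 without lines 15, 18, 19 and 24. Tnfrsf18 in NK against CD8 T cells (-0.80) was 0.19 with the wider gate and 0.19, 0.12, 0.21 and 0.23 there without each line. Tnfrsf9 in CD8 T against CD4 T cells (-0.13) was -0.29 to 0.059 without each line. The Foxp3 share differed by -14.3 percentage points with 1 control tumour, by -25.6 with no thinning or the wider gate, by -11.5 thinned to 500 UMIs, and by -15.1 to -13.5 without line 18, 19 or 24, the same control tumour remaining. It was -9.24 at 10 cells, -9.14 at 5 cells, -8.06 at 5 cells in the wider gate and -4.90 there with a Cd4 UMI required. The stricter gate, the mixed libraries alone and leaving out line 15 left no tumours to compare at 20 cells. The cause of these changes was not tested. No pairing by replicate number was possible, because these numbers only name lines and pair nothing between genotypes. Some control and KO tumours shared a mixed library and a day. The fits in the mixed libraries alone had library as a term where both of these libraries were present. Few lymphocytes per tumour, mainly in control tumours, limit all of these values.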

Other observations

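The 3 WT tumours have no group in the labels and are given as values. Their 11 regulatory T cells of the first gate had Foxp3 at 441 CPM (95% interval 261 to 697), Il2ra at 613 CPM (397 to 905), Tnfrsf4 at 956 CPM (679.7 to 1307) and Tnfrsf9 at 858 CPM (597 to 1193). In their 103 CD8 T cells Ikzf2 was at 93.7 CPM (61.2 to 137), Tnfrsf9 at 285 CPM (225 to 355) and Cd27 at 123 CPM (84.9 to 171). With the wider gate, Ikzf2 in CD8 T cells was at 92.2 CPM at day 6 (10 cells), 344 CPM at day 10 (18 cells) and 79.5 CPM at day 16 (148 cells). There the highest control tumour was at 72.3 CPM, and KO tumours ranged from 13.3 to 216 CPM. Mif was at 2375 CPM in the non-immune cells of the WT tumours. In their 20 CD4 T cells Tnfrsf4 was at 743 CPM (502 to 1061) and Tnfrsf18 at 818 CPM (563 to 1148), and Cd27 had no UMI. Of NK cells in the wider gate there were 28, with Tnfrsf9 at 733 CPM (579 to 916) and Tnfrsf4 at 1 UMI.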
